A study of Drosophila melanogaster with 14 samples.

Results

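CG8745, CG7166 and CR31451 are 3 of the 16727 genes counted in cultured ovarian somatic cells of Drosophila melanogaster. They were selected on their measured counts: their RNA was lower after RNAi against Lint-1 than after RNAi against Lint-O. All 3 were among the 8244 genes with enough reads to be tested. CG8745 (3L, 13860027 to 13866905) encodes a predicted class III aminotransferase, and its relatives in mammals include the enzyme that breaks down phosphoethanolamine. CG7166 (3L, 21620000 to 21625647) encodes a predicted cell surface protein with immunoglobulin domains. CR31451 (3R, 23983503 to 23985065) is a long noncoding RNA gene, listed by RefSeq as lncRNA:mimi. Positions are spans of whole genes in the dm6 assembly, from the RefSeq gene table. No exon lengths were used, so levels are compared between libraries and not between the 3 genes.

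The cells are a line of the follicle cell lineage of the fly ovary, with no germ cells. They received RNAi for 48 hours against EGFP, a sequence flies lack and here the control (EGFP KD), or against l(3)mbt (L(3)mbt KD), Lint-1 (Lint-1 KD) or Lint-O (Lint-O KD). Each of these 4 groups had 2 libraries of polyadenylated RNA, and no other alteration of the cells is given. The other 6 samples, ChIP and input libraries, were not analysed here.

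L(3)mbt is a chromatin protein whose malignant brain tumour repeats bind histone tails. In flies it acts as a repressor together with Lint-1 and other partners, and loss of l(3)mbt is known for switching on germline genes in tissues that should not use them. The comparisons ask which transcripts change in ovarian somatic cells when the mRNA of l(3)mbt, Lint-1 or Lint-O is reduced by RNAi.

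Reads on genes came to between 18293791 and 20978039 per library. Each RNAi target was lower in both libraries that carry its name. In L(3)mbt KD 53.2% of the control level of l(3)mbt mRNA remained, in Lint-1 KD 20.2% of Lint-1, and in Lint-O KD 8.29% of Lint-O, which the count table lists as CG2662. The follicle cell markers tj, fs(1)Yb, piwi, armi, Fas3, vret and eya were all detected, with a summed level of 2319 to 2606 CPM in EGFP KD, 1950 to 2535 in L(3)mbt KD, 2061 to 2390 in Lint-1 KD and 2101 to 2473 in Lint-O KD, carried mainly by armi and piwi. Of these eya rose, from 19.2 ± 0.412 to 32.3 ± 1.94 CPM (SD, n = 2) in L(3)mbt KD and 51.5 ± 9.73 in Lint-1 KD (edgeR adjusted p = 0.0224 and 0.000846), and stood at 21.4 ± 1.79 in Lint-O KD (adjusted p = 0.895). The call in L(3)mbt KD was lost in 3 of 4 cases with 1 library left out (up to 0.124). The hemocyte markers Hml, srp, NimC1 and Pxn summed to 18.7 to 24.3 CPM in EGFP KD, 20.6 to 20.9 in L(3)mbt KD, 26.4 to 33.7 in Lint-1 KD and 21.7 to 22.1 in Lint-O KD, from Pxn and srp, with Hml and NimC1 near 0. The muscle markers Mhc, wupA, up and Act88F summed to 1.83 to 4.77 CPM over the 8 libraries, almost all from Mhc, and the neuron markers elav, nSyb, brp and Syt1 to 16.9 to 31.9 CPM, almost all from elav. The summed level of the germ cell markers bam, osk, zpg, grk and nos was 10.03 to 14.4 CPM in EGFP KD, 27.4 to 28.9 in L(3)mbt KD, 31.4 to 32.96 in Lint-1 KD and 22.2 to 27.6 in Lint-O KD. osk had a mean under 0.06 CPM in every group and zpg had no count in EGFP KD or Lint-O KD. The members of this sum did not follow 1 pattern: grk averaged 9.55, 10.4 and 9.62 CPM in L(3)mbt KD, Lint-1 KD and Lint-O KD, and nos 3.95, 5.52 and 0.944 CPM. Both were higher than in EGFP KD in every knockdown. In the same order the edgeR adjusted p was 0.00295, 0.00222 and 0.00453 for grk and 0.000439, 0.000291 and 0.0185 for nos. The Lint-O KD call of nos was lost in 3 of 4 cases with 1 library left out (up to 0.0951). bam made up most of the sum in EGFP KD, so it was already expressed in the control. It was called in no knockdown, although all 3 tested markers had an unadjusted edgeR p under 0.05 in each. The part of these cell type markers in the results was not tested. In bulk RNA a change in the number of cells that express a gene and a change in RNA per cell cannot be told apart.

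CG8745 RNA was near its control level in Lint-1 KD and clearly above it in the other knockdowns. It had 39 and 42 counts in the EGFP KD libraries, which is 2.16 and 2.18 CPM (read counts scaled to the size of the library, with TMM normalisation). In L(3)mbt KD it had 149 and 99 counts (7.71 and 5.09 CPM), and in Lint-O KD 150 and 177 counts (7.86 and 9.28 CPM). The Lint-1 KD libraries held 40 and 36 counts (1.86 and 1.89 CPM). All 4 libraries of L(3)mbt KD and Lint-O KD were thus above all 4 of EGFP KD and Lint-1 KD.

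CG7166 was almost silent in the control. Its 2 EGFP KD libraries had 0 and 2 counts, or 0 and 0.104 CPM, and a count of 0 allows up to 3 counts, 0.166 CPM in that library. It had 161 and 113 counts in L(3)mbt KD (8.34 and 5.81 CPM) and 64 and 154 in Lint-O KD (3.35 and 8.08 CPM). In Lint-1 KD it had 22 and 11 counts (1.02 and 0.576 CPM). The Lint-1 KD libraries lay above both control libraries and below every library of the other knockdowns.

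CR31451 had 19 and 24 counts in EGFP KD (1.05 and 1.25 CPM). It reached 140 and 215 counts in L(3)mbt KD (7.25 and 11.06 CPM) and 80 and 161 in Lint-O KD (4.19 and 8.44 CPM). The Lint-1 KD libraries had 30 and 26 counts (1.39 and 1.36 CPM), a little above the control libraries and far below the other knockdowns. A microRNA gene, mir-9381, overlaps one end of CR31451 in the RefSeq table and was not analysed here.

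**Figure D1:**
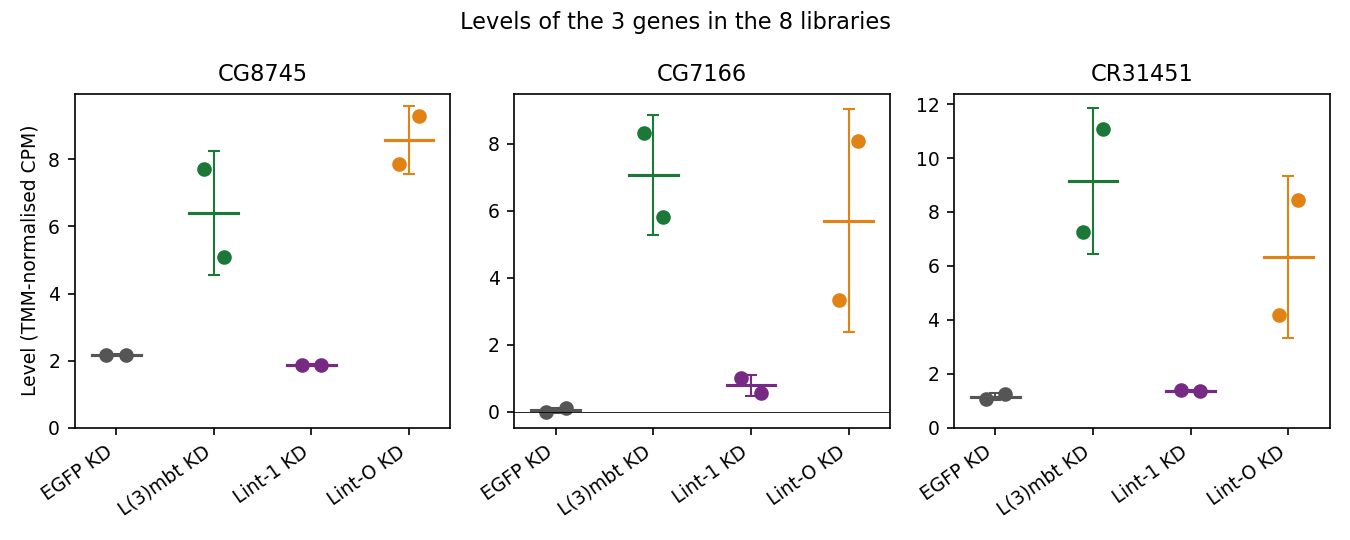
Level of each gene in TMM-normalised CPM on a linear axis, 1 panel per gene. Points are the 2 libraries of a group (replicate 1 left), horizontal lines the mean and bars the SD (n = 2). On this axis the Lint-1 KD points lie near the EGFP KD points in every panel, and below all points of L(3)mbt KD and Lint-O KD. For CG7166 they lie above the control, with 33 counts against 2.

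The rule that chose the 3 genes did not use L(3)mbt KD, so those libraries were tested against EGFP KD. All 3 rose. CG8745 rose from 2.17 ± 0.0158 to 6.40 ± 1.85 CPM (SD, n = 2 here and below), or by 1.56 on the log2 scale (SE 0.284; adjusted p = 0.00723 by edgeR). CR31451 rose from 1.15 ± 0.138 to 9.15 ± 2.70 CPM, or by 2.98 on the log2 scale (SE 0.410; adjusted p = 0.00149 by edgeR). CG7166 rose from 2 counts in the control libraries together to 274, a 131.8-fold ratio whose exact 95% counting interval ran from 36.1 to 1094 (adjusted p = 0.000664 by edgeR). Such intervals cover counting error only. In this comparison 790 of 8244 tested genes, 9.58%, were higher. The 3 were picked with results of these data known, so their adjusted p-values are not those of an independent choice. Their 3 calls are not to be read as more frequent than that share. Ordered by log2 fold change, CG7166 held rank 52 of all tested genes, CR31451 rank 292 and CG8745 rank 666.

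One left-out library ended the call of CG8745. Without EGFP KD replicate 1 its log2 fold change was 1.57 and its edgeR adjusted p = 0.0505. It stayed under 0.05 without any other library, and so did those of CG7166 and CR31451 without any of the 8. Whether the paired libraries of each group are separate cultures is not stated, so the p-values reflect only how far these libraries spread, which may be technical.

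In Lint-O KD and Lint-1 KD the levels are given as a description, with no test, since those libraries chose the genes. In Lint-O KD CG8745 averaged 8.57 ± 1.01 CPM, 3.94-fold its control level. CR31451 averaged 6.32 ± 3.01 CPM, 5.49-fold its control level. CG7166 averaged 5.71 ± 3.34 CPM, and its 218 counts against 2 give a ratio of 106.5 (95% counting interval 29.1 to 884.9). The fitted log2 changes against EGFP KD were 1.98 (SE 0.283) for CG8745, 2.45 (SE 0.412) for CR31451 and 6.57 (SE 0.831) for CG7166, the last of which depends on the prior count.

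In Lint-1 KD CG8745 averaged 1.87 ± 0.0180 CPM, and its 76 counts against 81 in the control give a ratio of 0.861 (95% counting interval 0.621 to 1.19). CR31451 averaged 1.38 ± 0.0235 CPM, and its 56 counts against 43 give a ratio of 1.20 (0.789 to 1.82). CG7166 averaged 0.799 ± 0.316 CPM, and its 33 counts against 2 give a ratio of 15.1 (3.87 to 130.3). These intervals leave out the spread between libraries and are no test.

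Set directly against Lint-O KD, Lint-1 KD held 21.8% of the CG8745 RNA, 13.99% of the CG7166 RNA and 21.8% of the CR31451 RNA. The log2 differences of Lint-1 KD minus Lint-O KD were -2.19 (SE 0.286), -2.81 (SE 0.543) and -2.19 (SE 0.399) in that order. Among all tested genes these are the falls of rank 29, 12 and 30. The choice of the genes had no threshold, and 4185 of the 8244 tested genes were lower in Lint-1 KD than in Lint-O KD by any amount. By the edgeR test 75 genes (0.91%) passed as higher and 22 (0.267%) as lower, the 3 genes among the latter, and nothing is read from that since this contrast chose them. Set against L(3)mbt KD, Lint-1 KD held 29.2% of the CG8745 RNA, 11.3% of the CG7166 RNA and 15.1% of the CR31451 RNA. The knockdowns differed in depth, with 53.2% of l(3)mbt, 20.2% of Lint-1 and 8.29% of Lint-O mRNA remaining. The part of that in these differences was not tested.

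The order of the groups was not the same for the 3 genes. For CG8745 both Lint-O KD libraries lay above both L(3)mbt KD libraries. For CG7166 and CR31451 the means were lower in Lint-O KD than in L(3)mbt KD, at 80.8% and 69.0%, and the libraries of these groups overlapped. At the low end, the Lint-1 KD libraries lay just under the control libraries for CG8745 and over them for CG7166 and CR31451.

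The libraries of a group also differed. All 3 genes were lower in Lint-O KD replicate 1 than in replicate 2, where CG7166 was 2.41-fold, CR31451 2.01-fold and CG8745 1.18-fold higher. The median ratio of replicate 2 to replicate 1 was 1.03 over all tested genes and 1.04 over the genes higher in L(3)mbt KD. Lint-O mRNA itself stood at 1.15 CPM in Lint-O KD replicate 1 and 1.99 CPM in replicate 2, and its part in these differences was not tested. Without Lint-O KD replicate 2 the log2 difference of Lint-1 KD minus Lint-O KD was -2.07 for CG7166 and -1.62 for CR31451, and without replicate 1 it was -3.33 and -2.62. The 3 genes did not vary together in L(3)mbt KD, since CG8745 and CG7166 were higher in replicate 1 and CR31451 in replicate 2.

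The direction of the 3 genes between Lint-1 KD and Lint-O KD was the less common one among genes higher in L(3)mbt KD. Of the 790 genes higher in L(3)mbt KD, 245 (31.0%) were lower in Lint-1 KD than in Lint-O KD, against 50.8% of all tested genes. The median log2 difference of Lint-1 KD minus Lint-O KD was 0.32 over the 790 genes, with quartiles at -0.16 and 0.77, and 0.00 over all tested genes. The edgeR test called 59 of the 790 higher in Lint-1 KD than in Lint-O KD and 10 lower, 3 of which are the genes chosen on this contrast. The other 7 are 0.889% of the other 787 raised genes and 36.8% of the other 19 called lower. As a description of the choice, CG7166 had rank 2, CG8745 rank 6 and CR31451 rank 7 among the 790 when ordered from the lowest difference.

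**Figure D2:**
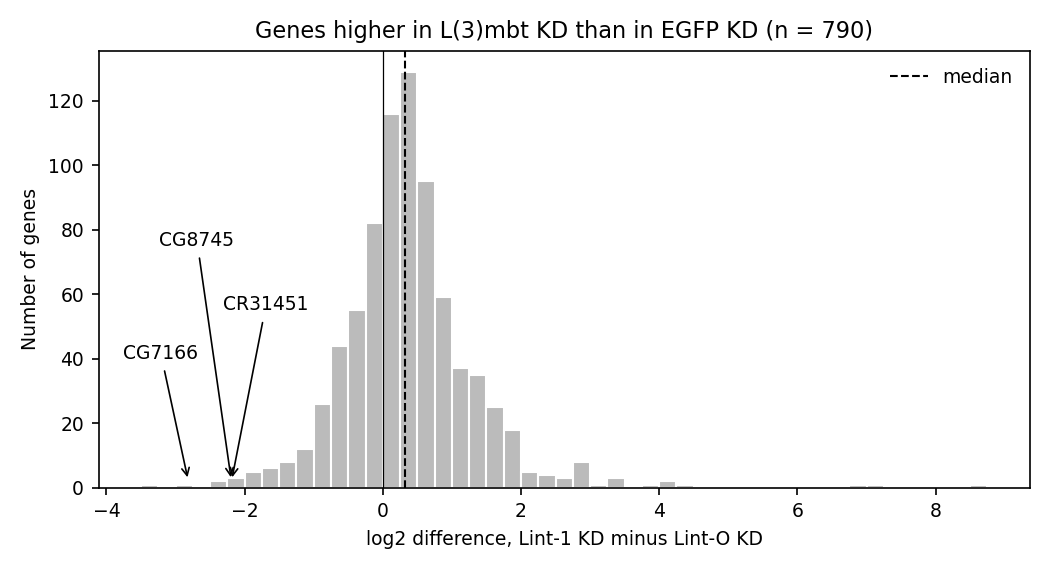
Histogram of the log2 difference between Lint-1 KD and Lint-O KD (bins of 0.25) for the 790 genes higher in L(3)mbt KD, with gene number on the vertical axis. The dashed line is the median, 0.32, the solid line marks no difference, and arrows mark CG7166 (-2.81), CG8745 (-2.19) and CR31451 (-2.19) in the left tail.

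The genes next to the 3 were examined to see whether whole neighbourhoods moved. No counted gene overlapped any of the 3. Of the 5 counted genes on either side of each, 18 of 30 had enough reads to be tested. In L(3)mbt KD 1 of the 18 was higher (background 9.58%) and 2 lower (1.31%). In Lint-1 KD 1 was higher (8.41%) and 2 lower (1.25%), and in Lint-O KD 1 was higher (5.2%) and 1 lower (0.255%).

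CG8745 lies 26 bases from Hml, the gene of the hemocyte protein hemolectin, and 509 bases from dysc, which encodes a scaffold protein with PDZ domains. Hml had 0 to 4 counts in a library and stayed almost silent in all groups. The dysc RNA had 139.4 and 151.0 CPM in the control libraries, 90.2 and 91.4 in L(3)mbt KD, 111.5 and 131.3 in Lint-1 KD, and 98.7 and 94.96 in Lint-O KD. It fell in L(3)mbt KD (-0.68 on the log2 scale, SE 0.121, edgeR adjusted p = 0.00660) and in Lint-O KD (-0.59, SE 0.121, edgeR adjusted p = 0.0225), where CG8745 was high. In Lint-1 KD its log2 fold change was -0.26 (SE 0.121, edgeR adjusted p = 0.233). The difference between Lint-1 KD and Lint-O KD was 0.33 for dysc and did not pass (edgeR adjusted p = 0.211). With 1 library left out, the call of dysc in L(3)mbt KD was lost in 1 of 4 cases (adjusted p up to 0.0578) and that in Lint-O KD in all 4 (0.0904 to 0.189). Next in line, Tsp68C beyond Hml had 16 counts in all and CG13737, within the span of dysc, had none.

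None of the 6 tested neighbours of CG7166 passed in any knockdown. The nearest, CG11307 at 127 bases and CG11306 (Alg11, a mannosyltransferase of protein glycosylation) at 159 bases, had log2 fold changes of -0.11 and 0.04 in L(3)mbt KD (edgeR adjusted p = 0.842 and 0.914). CG11307 had 13.2 and 17.3 CPM in the control, and it had 18.1 and 10.2 in L(3)mbt KD, so its groups overlapped. S1P, a protease, went from 18.8 ± 0.857 to 13.1 ± 3.01 CPM in L(3)mbt KD (edgeR adjusted p = 0.238). MED1, a subunit of the Mediator complex, went from 115.1 ± 9.22 to 106.1 ± 7.99 CPM (edgeR adjusted p = 0.621). CG7166 thus rose between flanking genes that were already expressed in the control and did not pass the test.

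CR31451 lies 271 bases from CG31140, and here the neighbour did change. CG31140 RNA had 0.333 and 0.416 CPM in the control libraries, 1.29 and 3.40 in L(3)mbt KD, 2.05 and 1.89 in Lint-1 KD, and 1.99 and 3.15 in Lint-O KD. All 6 knockdown libraries were above both control libraries. Its log2 fold changes were 2.62 (SE 0.592, edgeR adjusted p = 0.0210) in L(3)mbt KD, 2.37 (SE 0.597, edgeR adjusted p = 0.0377) in Lint-1 KD and 2.75 (SE 0.590, edgeR adjusted p = 0.0268) in Lint-O KD. CG31140 therefore rose in Lint-1 KD too, where CR31451 had 1.20 times its control counts, and its log2 difference of Lint-1 KD minus Lint-O KD was -0.38 (SE 0.483, edgeR adjusted p = 0.707). With 1 library left out the 3 calls of CG31140 were lost in 3, 4 and 4 of 4 cases (adjusted p up to 0.136, 0.160 and 0.165).

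On the other side of CR31451, CG13603 at 148 bases and CG5902 did not pass in any knockdown. Their log2 fold changes in L(3)mbt KD were 0.26 and -0.24 (edgeR adjusted p = 0.341 and 0.236). Beyond CG31140, the adaptor protein subunit gene AP-1sigma had 36.9 ± 2.54 CPM in the control and 31.2 ± 4.93 in Lint-1 KD (edgeR adjusted p = 0.384). Farther out, Aats-glupro, the gene of the glutamyl-prolyl-tRNA synthetase, fell in Lint-1 KD from 329.1 ± 15.7 to 161.1 ± 15.96 CPM (-1.03 on the log2 scale, SE 0.140, edgeR adjusted p = 0.00165). It also differed between Lint-1 KD and Lint-O KD (-0.98, edgeR adjusted p = 0.0142). Gdh, glutamate dehydrogenase, fell in L(3)mbt KD (-0.62, SE 0.113, edgeR adjusted p = 0.00736) and Lint-1 KD (-0.45, SE 0.113, edgeR adjusted p = 0.0381). Left-out libraries ended the Gdh call in 2 of 4 cases in L(3)mbt KD (adjusted p up to 0.0742) and in all 4 in Lint-1 KD (0.121 to 0.275).

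**Figure D3:**
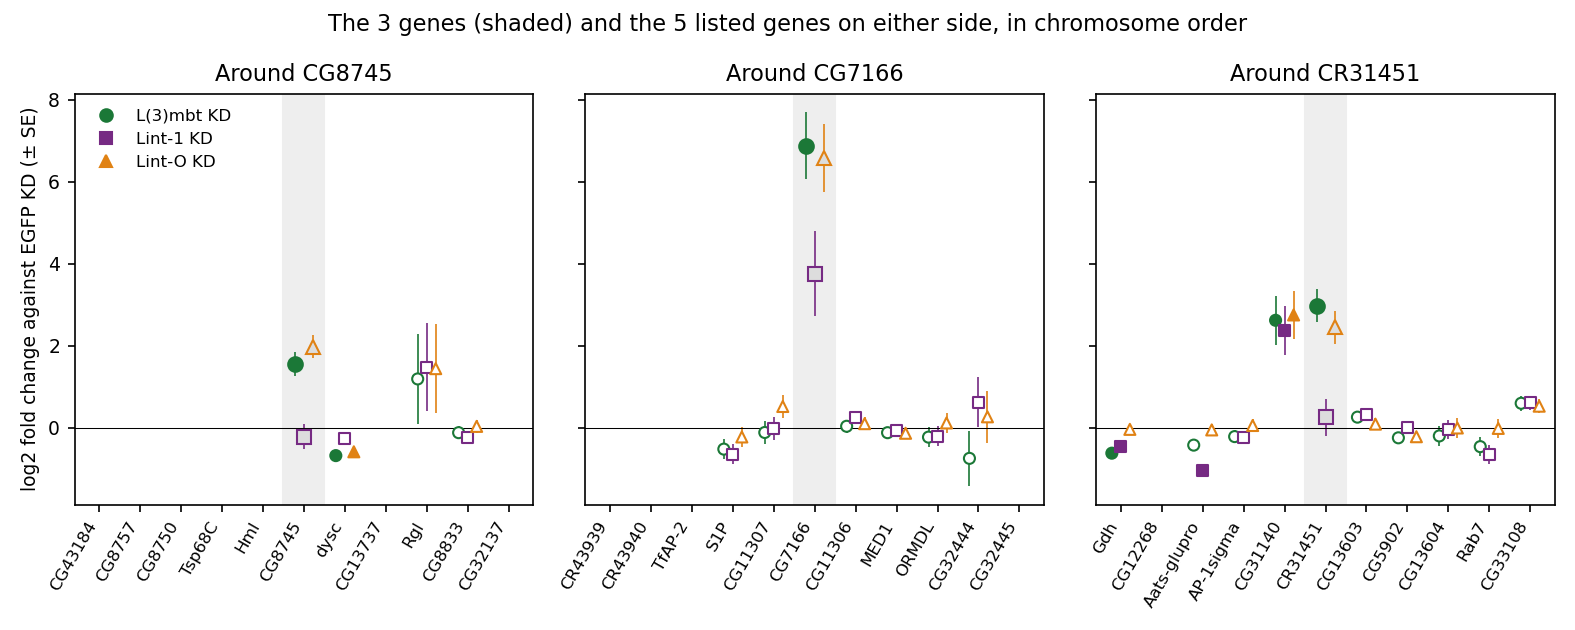
Log2 fold change against EGFP KD (± SE of the fit) for each gene (shaded) and the 5 counted genes on either side in chromosome order, not to distance. Filled symbols passed the edgeR test, open ones did not, grey-filled symbols were not tested, and genes without symbols had too few reads. CG8745 and CG7166 stand above their neighbours in L(3)mbt KD and Lint-O KD, while CG31140, next to CR31451, is raised in all 3 knockdowns and lies above CR31451 in Lint-O KD (2.75 against 2.45).

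The 3 genes were then set beside others of the same kind. For CG8745 these were 15 other tested genes of class III aminotransferases and of ethanolamine, choline and sphingolipid metabolism. In L(3)mbt KD 3 of the 15 were higher and none lower (edgeR, 5 unadjusted p-values under 0.05), in Lint-1 KD 3 and none (4 unadjusted), and in Lint-O KD 2 and none (3 unadjusted). Over all 8244 tested genes 2004, 1964 and 1091 unadjusted p-values were under 0.05 in these comparisons. That is the background for such counts in this list and those below. The calls of higher genes are 20.0%, 20.0% and 13.3% of this small list, beside 9.58%, 8.41% and 5.2% of all tested genes. Their median log2 fold changes were -0.02, 0.03 and -0.08, beside -0.01, -0.01 and -0.01 over all tested genes.

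The clearest contrast was with CG7433, the gene of GABA transaminase and another class III aminotransferase. It had 4.43 and 4.32 CPM in the control libraries, 16.4 and 15.4 in L(3)mbt KD, 17.2 and 17.2 in Lint-1 KD, and 21.1 and 17.6 in Lint-O KD. It rose by 1.86, 1.97 and 2.14 on the log2 scale (edgeR adjusted p = 0.000249, 0.000214 and 0.000196), and its log2 difference of Lint-1 KD minus Lint-O KD was -0.17 (SE 0.175, edgeR adjusted p = 0.637). CG2201, a choline and ethanolamine kinase gene, rose by 0.83, 0.76 and 0.97 in the same order (edgeR adjusted p = 0.0318, 0.0472 and 0.0240). The ethanolamine kinase gene eas rose by 0.61 in L(3)mbt KD and 0.69 in Lint-1 KD (edgeR adjusted p = 0.0418 and 0.0272) and had a log2 fold change of 0.09 in Lint-O KD (adjusted p = 0.952). Left-out libraries ended every call of eas (adjusted p 0.0869 to 0.186) and 8 of 12 cases for CG2201 (up to 0.236), and none for CG7433.

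For CG7166 the comparison was with 45 other tested genes of immunoglobulin-domain surface proteins, which act in cell adhesion and in the wiring of neurons. In L(3)mbt KD 4 were higher and 1 lower, in Lint-1 KD 3 were higher and in Lint-O KD 2 (edgeR, none lower in the last 2, with 10 and 4 unadjusted p-values under 0.05). The higher genes are 8.89%, 6.67% and 4.44% of the list, close to 9.58%, 8.41% and 5.2% of all tested genes. Their median log2 fold changes were 0.16, 0.02 and -0.09. dpr19, of the dpr family of neuronal surface proteins, rose in all 3, from 2.28 ± 0.0109 CPM to 10.1 ± 2.49, 6.45 ± 2.45 and 11.98 ± 2.86 CPM (edgeR adjusted p = 0.00345, 0.0253 and 0.00286). dpr7 rose in L(3)mbt KD from 0.644 ± 0.0291 to 5.31 ± 1.73 CPM and in Lint-O KD to 3.09 ± 0.521 CPM (3.03 and 2.25, edgeR adjusted p = 0.00380 and 0.0322). In Lint-1 KD dpr7 stood at 2.09 ± 1.19 CPM (1.68, edgeR adjusted p = 0.0808).

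Other genes of this class moved differently from CG7166. sns, the nephrin-like adhesion protein of myoblast fusion, rose in Lint-1 KD from 0.402 ± 0.0198 to 2.43 ± 0.413 CPM (2.57, edgeR adjusted p = 0.0264). Dscam4 rose by 0.61 in L(3)mbt KD and 0.75 in Lint-1 KD (edgeR adjusted p = 0.0465 and 0.0211). Fas2, a homophilic adhesion protein, fell in L(3)mbt KD from 40.6 ± 8.41 to 19.4 ± 5.56 CPM (-1.06, edgeR adjusted p = 0.0478). Left-out libraries ended the calls of sns and Dscam4 in every case (adjusted p up to 0.171 and 0.217), that of Fas2 in 3 of 4 (up to 0.216), that of dpr7 in Lint-O KD in all 4 (up to 0.173) and that of dpr19 in Lint-1 KD in 3 of 4 (up to 0.160).

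For CR31451 the comparison was with the other noncoding genes named CR and a number, of which 229 were tested. Of these 25 were higher and none lower in L(3)mbt KD, in Lint-1 KD 16 were higher and 1 lower, and in Lint-O KD 13 were higher and none lower (edgeR, 49, 53 and 33 unadjusted p-values under 0.05). At 10.9%, 6.99% and 5.68%, the shares of higher genes were near those of all tested genes (9.58%, 8.41% and 5.2%). Their median log2 fold changes were 0.35, 0.27 and 0.01. CR43467 rose from 0.156 ± 0.221 CPM to 6.71 ± 0.189, 5.38 ± 0.941 and 2.44 ± 1.08 CPM in L(3)mbt KD, Lint-1 KD and Lint-O KD (log2 fold changes 5.33, 5.01 and 3.87, edgeR adjusted p = 0.000877, 0.00156 and 0.0122).

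CR43864, CR44294 and CR44961 also rose in all 3 knockdowns, with log2 fold changes of 4.39, 4.12 and 4.07 in Lint-1 KD (edgeR adjusted p = 0.00325, 0.00131 and 0.00229). Each of these averaged more in Lint-1 KD than in Lint-O KD, but that difference did not pass (edgeR adjusted p = 0.230, 0.162 and 0.284). CR43425 rose from 0.163 ± 0.0832 CPM to 1.86 ± 0.300, 1.74 ± 0.167 and 2.49 ± 0.113 CPM (edgeR adjusted p = 0.00256, 0.00338 and 0.00181). CR44316 and CR45566 had 2 counts each in the control. CR44316 showed ratios of 17.3 in L(3)mbt KD (95% counting interval 4.46 to 148.4), 13.3 in Lint-1 KD (3.37 to 115.1) and 31.3 in Lint-O KD (8.31 to 263.7), with edgeR adjusted p = 0.0202, 0.0393 and 0.00872. CR45566 rose in L(3)mbt KD, with a ratio of 28.4 (7.51 to 239.8, edgeR adjusted p = 0.0174). For CR44316 the left-out libraries ended 8 of 12 cases and for CR45566 2 of 4 (adjusted p up to 0.171 and 0.111). The Lint-O KD calls of CR43467, CR43864, CR44294 and CR44961 ended in 1, 2, 3 and 2 of 4 cases (up to 0.0933, 0.169, 0.127 and 0.121).

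**Figure D4:**
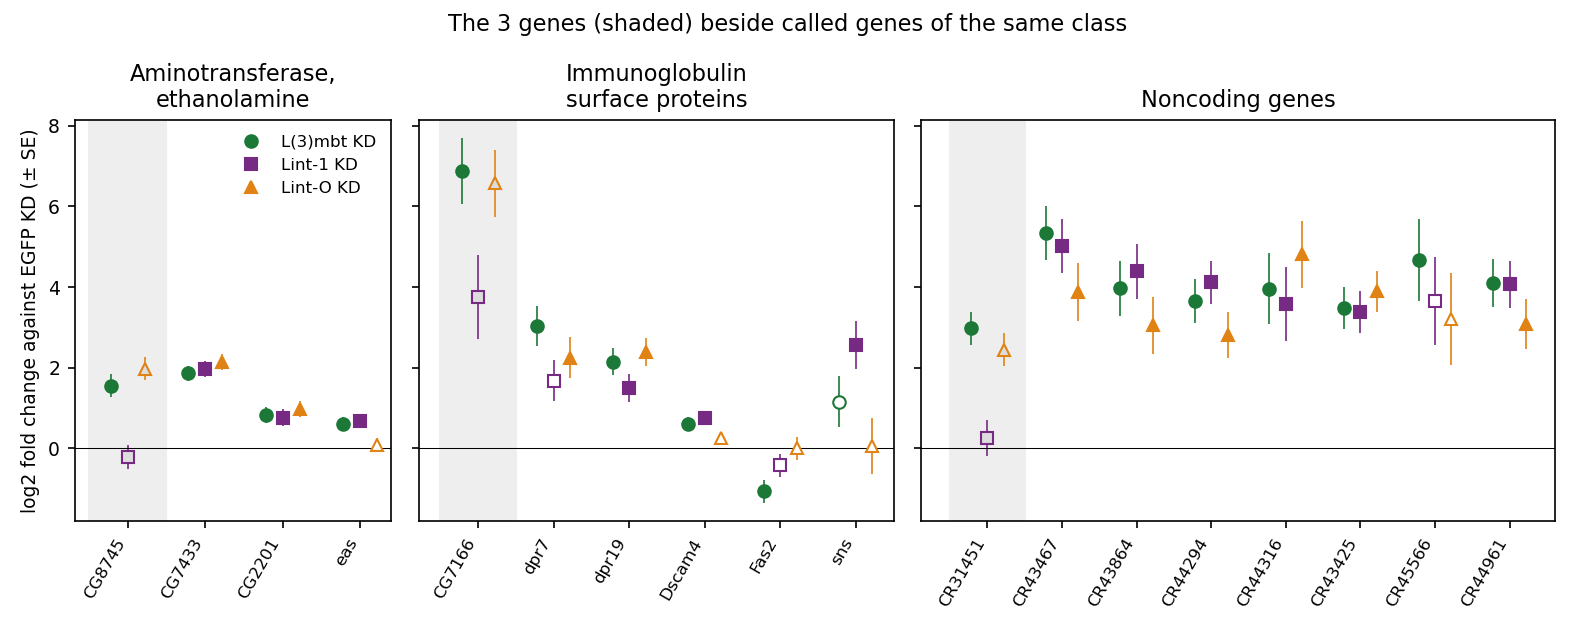
Log2 fold change against EGFP KD (± SE of the fit) of each of the 3 genes (shaded) and of the called genes of the same class with the largest changes. Filled symbols passed the edgeR test, open ones did not and grey-filled ones were not tested, and values of genes with 0 to 3 control counts depend on the prior count. CG7433, CG2201, eas, dpr19, sns, Dscam4 and the unshaded noncoding genes other than CR45566 have a filled Lint-1 KD symbol. The Lint-1 KD symbols of CG8745 and CR31451 lie near 0.

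Among the repressor genes few were called. Of 16 tested genes of the L(3)mbt, Lint-1 and dREAM repressor complexes, each knockdown lowered 1, its own target, and raised none (edgeR, with 3, 4 and 3 unadjusted p-values under 0.05 in L(3)mbt KD, Lint-1 KD and Lint-O KD), where 9.58%, 8.41% and 5.2% of all tested genes were higher and 1.31%, 1.25% and 0.255% lower. l(3)mbt mRNA stood at 196.7 ± 0.224 CPM in Lint-1 KD against 186.5 ± 1.13 in the control (log2 fold change 0.08, edgeR adjusted p = 0.683), and Lint-O mRNA at 21.7 ± 1.86 against 18.97 ± 1.31 (0.20, edgeR adjusted p = 0.616). Lint-1 mRNA went from 54.4 ± 4.54 to 79.0 ± 9.72 CPM in L(3)mbt KD (0.54, edgeR adjusted p = 0.0547) and to 77.8 ± 0.377 in Lint-O KD (0.52, edgeR adjusted p = 0.114). In L(3)mbt KD that difference passed with upper-quartile factors, DESeq2, no low-count filter and without L(3)mbt KD replicate 1 (adjusted p = 0.0494, 0.0332, 0.0436 and 0.0350).

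The tested genes most like each of the 3 were found by the root mean square difference of the 3 log2 fold changes against EGFP KD, which share the control libraries. Nearest to CG8745 were CG31886, fan and Rfabg, with differences of 0.08, 0.18 and 0.18. fan, a relative of the VAP membrane proteins that acts in the testis, had 1.22 and 0.728 CPM in the control libraries, 3.52 and 2.98 in L(3)mbt KD, 0.744 and 1.05 in Lint-1 KD, and 2.72 and 3.78 in Lint-O KD. Rfabg, the apolipophorin precursor of lipid transport, stood at 0.942 and 1.14, 4.25 and 1.49, 0.837 and 0.628, and 2.67 and 5.14 CPM in the same order. CG31886 had under 1 CPM in every library and 39 counts in all. The SEs of its log2 fold changes were 1.15, 1.40 and 1.11 in L(3)mbt KD, Lint-1 KD and Lint-O KD. Its small difference from CG8745 is thus far inside its own error. Neither CG31886 nor Rfabg was called by edgeR in any knockdown.

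Nearest to CG7166 were CG33926, lectin-22C and Ir31a, with differences of 0.36, 0.43 and 0.49. CG33926 had 0.665 and 0 CPM in the control libraries, 26.2 and 37.4 in L(3)mbt KD, 3.81 and 5.29 in Lint-1 KD, and 25.8 and 16.9 in Lint-O KD. Its likeness to CG7166 follows from how it was picked. Ir31a, a receptor gene of the ionotropic receptor family, was at 0 in both control libraries. Against a floor of 3 counts per library it was at least 4.65-fold higher in L(3)mbt KD and at least 6.67-fold higher in Lint-O KD. lectin-22C, a C-type lectin gene also at 0 in the control, had 20 and 17 counts in those groups and was not called by edgeR in any knockdown.

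Nearest to CR31451 were CR43148, CG5194 and Whamy, with differences of 0.54, 0.58 and 0.58. CR43148 had 0.665 and 0.936 CPM in the control libraries, 3.42 and 5.97 in L(3)mbt KD, 1.12 and 2.20 in Lint-1 KD, and 2.93 and 4.40 in Lint-O KD. Whamy, a regulator of actin assembly, stood at 0.222 and 0.312, 1.81 and 1.59, 0.465 and 0.733, and 1.05 and 1.26 CPM. CG5194 had under 1 CPM in every library and was not called by edgeR in any knockdown.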

How the data were processed

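The authors deposited raw read counts per gene for 8 RNA libraries, and per the submitters' processing notes HISAT2, HTSeq and edgeR and the build dm6 were used, with roles, versions, annotation release and strand setting not given in the sources used here. Per the labels' protocols the library kit keeps strand. Counts of overlapping or antisense genes are therefore uncertain. Of 16732 entries 5 were special lines and were left out throughout. They include the reads assigned to no gene (14.96% to 18.5% per library) and the ambiguous ones (1.05% to 1.13%). Symbols were matched to the RefSeq gene table of release 6 (dm6): 12512 current, 3996 by synonym, 219 unmatched.

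The counts were tested with edgeR 4.0.16 (R 4.3.3): filterByExpr by group, TMM factors, glmQLFit on the 8 libraries together, with no term but group and 4 residual degrees of freedom, glmQLFTest, Benjamini-Hochberg adjustment over 8244 genes, called under 0.05. SE is the log2 fold change over the root of F. Ratios with few control counts carry exact 95% counting intervals, which cover counting error only. The 3 genes, the lists and the rules for named genes (neighbours, nearest patterns and the up to 3 called list genes with the largest change) were chosen with earlier results of these data known. Both libraries of each group differed by more than sampling noise, with chi-square values of 21.4 to 50.8 per degree of freedom. In simulated counts of 7769 genes made for the L(3)mbt KD comparison, the test found 74 of 100 genes set to change 2-fold, 99 of 100 set to change 4-fold and 15 unchanged ones. The changed genes were only raised, and came from genes above a minimum control level that CG7166 does not reach. Simulated libraries were independent, so the correlations between the real ones were absent. Alternatives were DESeq2 1.42.0, other scalings and filters, a fit of only the 4 libraries compared, a block for the replicate number, and each library left out. Those for genes other than the 3, a crossed block and the alternatives for the median over raised genes were added after seeing the data. Promoter sequences were not used here.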

Additional observations from a re-analysis of the deposited data

How the results depend on the processing

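The rise of CG8745, CG7166 and CR31451 in L(3)mbt KD kept its direction and passed under each other scaling, filter and tool, the fit of 4 libraries and the replicate block. With the replicate block the log2 fold changes were 1.55, 6.90 and 2.97 (edgeR adjusted p = 0.0204, 0.00353 and 0.00206), and with DESeq2 1.55, 7.04 and 2.99. With 1 library left out they ranged from 1.21 to 1.84, from 6.02 to 10.1 and from 2.67 to 3.24, and CG8745 did not pass without EGFP KD replicate 1. All 3 were lower in Lint-1 KD than in Lint-O KD under these alternatives and without each library. DESeq2 size factors left the ranks of that fall at 29, 12 and 30 and the count of genes called lower at 22.

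The counts of called genes moved more. With 1 library left out, genes higher ranged from 511 to 776 in L(3)mbt KD, from 414 to 754 in Lint-1 KD and from 261 to 448 in Lint-O KD, and genes lower from 20 to 432, from 11 to 242 and from 3 to 24. With the replicate block 47, 40 and 6 genes were lower, with DESeq2 164, 191 and 34, and without the low-count filter 168, 277 and 32. The fit of 4 libraries gave 19 lower in L(3)mbt KD. Deviations of same-numbered libraries correlated across genes at -0.34 (EGFP KD with L(3)mbt KD), -0.21 (EGFP KD with Lint-1 KD), 0.20 (EGFP KD with Lint-O KD), 0.33 (L(3)mbt KD with Lint-1 KD), -0.24 (L(3)mbt KD with Lint-O KD) and -0.16 (Lint-1 KD with Lint-O KD). The same number therefore does not pair the libraries throughout, and the signs are those of numbers crossed between EGFP KD with Lint-O KD and the other groups, which the labels do not state. A crossed replicate block, given for counts of calls only, was fitted on the 4 libraries compared, and its crossing was chosen from these correlations. It had 1305 higher and 1123 lower genes in L(3)mbt KD and 1185 and 1188 in Lint-1 KD. The fit of 4 libraries without a block had 536 and 19 in L(3)mbt KD and 651 and 119 in Lint-1 KD. The shares of called genes therefore depend on the block. The median of 0.32 over genes higher in L(3)mbt KD was 0.35 with the replicate block, 0.36 in the fit of 4 libraries and 0.26 to 0.37 with 1 library left out. With the largest difference as the measure of likeness, 3, 2 and 2 of the 3 nearest genes of CG8745, CG7166 and CR31451 were the same. The causes were not tested.

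Of 57 calls of the other named genes, 33 ended with at least 1 of the 4 compared libraries left out. The replicate block ended 16 (adjusted p 0.0522 to 0.0955): all of CG2201 and eas, both of fan, those of Fas2, sns and Dscam4 (the last in L(3)mbt KD), Gdh, dpr19 and CR44316 in Lint-1 KD, and dysc, CR44961 and CR43864 in Lint-O KD. Groups of 2 allow no search for single outlying values, and counts under 50 limit what Lint-1 KD and the control show.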

Other observations

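Of the 10 genes higher in L(3)mbt KD and called lower in Lint-1 KD than in Lint-O KD, the other 7 were vas, cona, CG1674, CG31997, tomb, CG5167 and CG14314, named here after their values were seen. CG5167 averaged 19.0 ± 1.16 CPM in EGFP KD, 29.8 ± 4.61 in L(3)mbt KD, 17.2 ± 0.397 in Lint-1 KD and 41.8 ± 1.94 in Lint-O KD (SD, n = 2). CG14314 averaged 18.2 ± 3.20, 36.6 ± 5.97, 19.6 ± 2.08 and 38.5 ± 0.466 CPM in the same order. CG1674 averaged 6.73 ± 1.21, 23.3 ± 6.86, 9.63 ± 1.19 and 28.2 ± 7.13 CPM. Against EGFP KD the log2 fold changes in Lint-1 KD were -0.15 for CG5167, 0.11 for CG14314 and 0.51 for CG1674. They are a description, since the Lint-1 KD libraries chose these genes. Not all of the genes stayed near the control in Lint-1 KD. In the same order of groups, cona averaged 0.267 ± 0.0638, 105.3 ± 17.4, 13.4 ± 4.45 and 53.5 ± 8.59 CPM. CG31997 averaged 0.700 ± 0.107, 7.30 ± 2.41, 4.90 ± 0.493 and 13.2 ± 1.12 CPM. tomb averaged 0.747 ± 0.194, 7.82 ± 0.439, 3.54 ± 0.120 and 9.49 ± 1.55 CPM. vas, the germline helicase gene, averaged 1.40 ± 0.215, 123.5 ± 1.86, 12.3 ± 0.270 and 63.1 ± 12.4 CPM. The log2 differences of Lint-1 KD minus Lint-O KD ranged from -2.36 for vas to -0.97 for CG14314 (edgeR adjusted p = 0.000442 and 0.0487). CG1674, CG31997 and tomb were also near the threshold (edgeR adjusted p = 0.0348, 0.0453 and 0.0337). Passing this test was the condition for listing the 7 genes, so nothing more is read from these p-values. Results with libraries left out are not given for them.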
